A study of Mus musculus with 6 samples.

Results

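DNA damage repair genes were described in mouse lymphoid Ba/F3 cells that carry the RPL10 R98S mutation of T-cell acute lymphoblastic leukemia. The 40 genes were chosen by symbol from a list that spans checkpoint signaling, homologous recombination, the Fanconi pathway, end joining, mismatch repair and excision repair, and all 40 were found among the 41255 genes of the table. Messenger RNA was sequenced from 6 cultures, of which clones 28, 29 and 36 expressed WT and clones 11, 13 and 35 R98S RPL10, with 1 library per clone. Ba/F3 is an interleukin-3 dependent mouse line, and each culture had grown out of 1 cell that carried human RPL10, WT or R98S, on a retrovirus. A short hairpin RNA against the mouse Rpl10 gene was present in every culture of both groups, and all cells received cycloheximide, which halts translating ribosomes, at 100 μg/ml for 5 min before RNA isolation. Differences that a single clone acquired and the effect of the mutation cannot be told apart beyond what 3 clones a group allow.

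Cells meet DNA lesions with a set of specialised pathways. The kinases ATM and ATR sense breaks and stalled replication forks and halt the cell cycle. Broken ends are rejoined either by homologous recombination, which copies the sister chromatid, or by non-homologous end joining, which begins with the Ku heterodimer. Damaged or mispaired bases are cut out by base excision, nucleotide excision or mismatch repair, and the Fanconi pathway deals with crosslinks between the strands. Lymphoid cells also use end joining to assemble antigen receptor genes.

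The libraries held between 21786776 and 24204991 reads assigned to genes, and every member had at least 175 reads in every library. The median SD within a group was 0.18 for the members and 0.20 for all tested genes on the log2 scale. How far the depth limited the precision of single members was not tested. The targeted mouse gene, Rpl10, had between 1900 and 3156 normalized counts in WT and between 1883 and 3028 in R98S clones, a range that does not check the genotype because the hairpin was present in both groups. Whether reads of the human RPL10 on the retrovirus were counted with the mouse gene was not tested. The first principal component over all tested genes (61.2% of the variance) separated the WT from the R98S clones. On the second (13.0%), WT clone 36 and R98S clone 13 lay apart from the other 4 clones. The label of the cells was compared with marker genes. The 14 markers of Ba/F3 cells and B cell precursors summed to between 99412 and 119396 normalized counts per library in WT and between 135978 and 160656 in R98S cells. Of the 6 that were tested, 4 were called (66.7%, compared with 23.9% of all tested genes). Of these 4, 3 were higher and 1 lower (50% and 16.7% of the 6, compared with 10.7% and 13.1% of all tested genes). The log2 fold changes of the 6 ran from -1.33 to 1.22. The interleukin-3 receptor genes Csf2rb and Il3ra and the B-lineage gene Cd79a were present in both groups, whereas Vpreb1, Igll1, Rag1 and Pax5 had at most 3 reads in any library, as did 6 of the 14 markers in all. The 7 T cell markers summed to between 52.2 and 106 normalized counts per library in WT and between 152 and 179 in R98S cells, with Cd4 at 2 reads or fewer and Trbc1 at 0. Only 2 of the 7 were tested, and both were called higher in R98S cells, with a median log2 fold change of 1.67. The 9 mast cell and myeloid markers summed to between 216 and 312 in WT and between 80.6 and 538 in R98S cells, and the 7 erythroid and fibroblast markers to between 222 and 693 and between 375 and 596. Their part in the results was not tested.

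Called repair genes were mostly higher in R98S cells. Calls were made on log2(normalized count + 1) with limma, where the adjusted p had to be under 0.1, and the log2 fold change is the R98S minus the WT mean on that scale. Of the 40 members 13 (32.5%) passed, compared with 23.9% of the 11550 genes tested. Of the 13, 12 were higher (30% of the members, compared with 10.7% of all tested genes) and 1, Atr, was lower (2.5%, compared with 13.1%). Called higher were Atm, Rad54l, Mre11a, Nbn, Blm, Fancg, Xrcc5, Xrcc6, Xpa, Ung, Apex1 and Lig3. The log2 fold change had a positive sign in 31 members and a negative sign in 9, with a median of 0.20 over the members and -0.011 over all tested genes. No overlap between R98S and WT values was seen for 15 members with higher and 4 with lower R98S values, compared with 18.1% and 19.2% of all tested genes (37.3% in either direction). edgeR called 13 members (23.8% of all tested genes) and DESeq2 17 (26.9%). In bulk RNA, fewer cells of a type and less RNA per cell cannot be told apart. The number of calls varied with the clones left out, for the members and for all tested genes alike. Without WT clone 28 and without WT clone 29, 3 members (Rad54l, Xrcc5 and Apex1) were called, where 11.4% and 12.6% of all tested genes were. Without R98S clone 11 and without R98S clone 35 there were 6 (13.5% and 17.4% of all tested genes). Without WT clone 36 and without R98S clone 13 there were 14 (21.7% and 27.8%). At an adjusted p under 0.05, 7 members were called, all of them higher, compared with 14.9% of all tested genes.

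**Figure D1:**
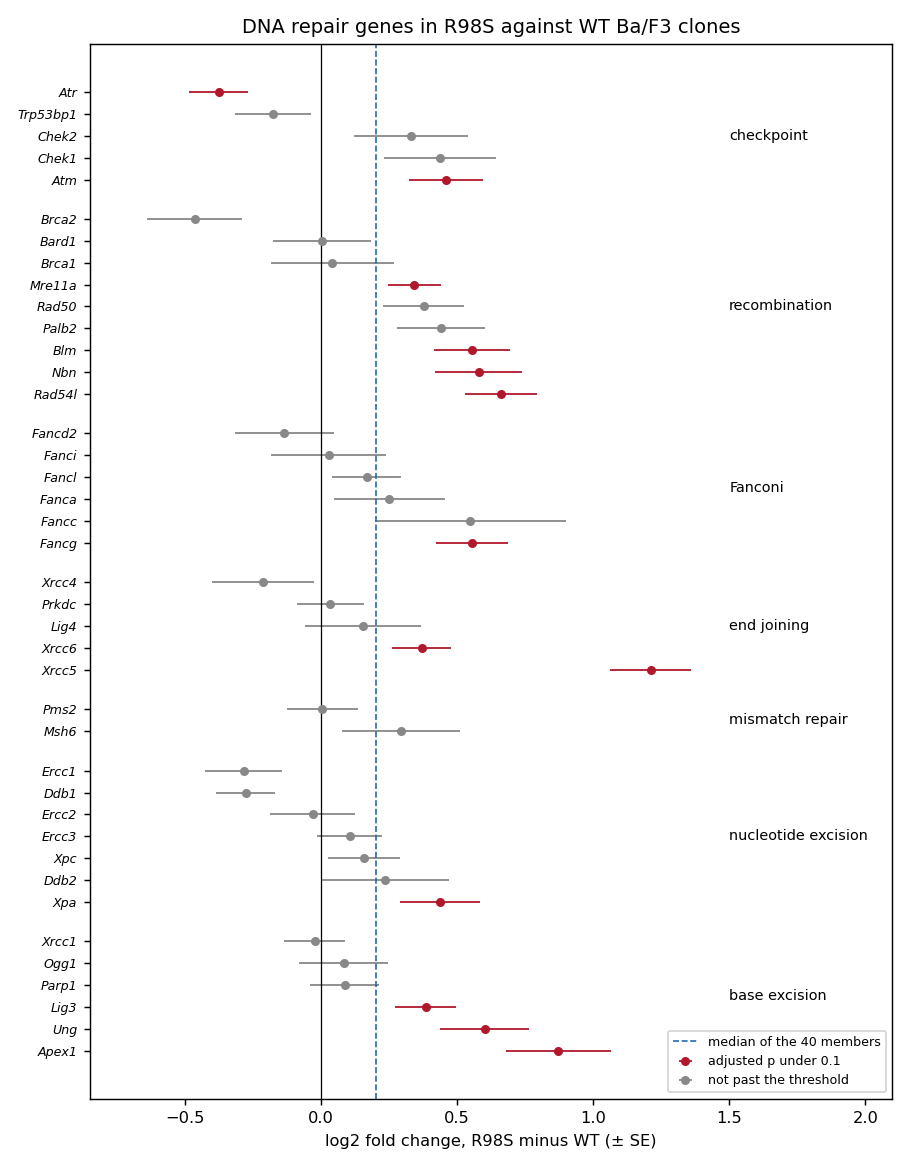
Log2 fold change (R98S minus WT, x axis) of each of the 40 repair genes (y axis, grouped by pathway) with its standard error from limma, in red where the adjusted p was under 0.1. Xrcc5 lies farthest to the right at 1.21, Atr is the only red point left of 0, and the dashed line marks the median of the members at 0.20.

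Xrcc5 had the largest difference of all members. It encodes Ku80, which forms with Ku70 the ring that slides onto broken DNA ends and recruits the other end joining factors. Xrcc5 (ENSMUSG00000026187, chromosome 1, 72307421 to 72394952, plus strand, GRCm38) had 339 normalized counts in WT clone 28, 444 in clone 29 and 358 in clone 36, and 959, 818 and 857 in R98S clones 11, 13 and 35. Every R98S clone thus lay at over 1.5 times the highest WT clone. The average rose from 380 ± 55.8 to 878 ± 73.0 (n = 3, SD), or 2.31-fold, with a log2 fold change of 1.21 (± 0.15 SE, adjusted p = 0.00297 in limma), and the call held in all 19 alternative analyses. The 30 nearest tested genes were at a median log2 fold change of 0.20, and with that regional shift subtracted the log2 fold change of Xrcc5 was 1.02 (limma adjusted p = 0.00852).

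The partner of Ku80, Ku70, showed a smaller difference. Xrcc6 (chromosome 15, 81987835 to 82040085, plus strand), which encodes Ku70, gave 1631 (clone 28), 1617 (clone 29) and 1884 (clone 36) normalized counts in WT and 2331 (clone 11), 2160 (clone 13) and 2130 (clone 35) in R98S cells. The groups did not overlap, and the average rose from 1711 ± 150.3 to 2207 ± 108 (n = 3, SD; log2 fold change 0.37 ± 0.11 SE, adjusted p = 0.0550 in limma). The call was lost without WT clone 28, WT clone 29 or R98S clone 11 and without an expression filter (limma adjusted p from 0.111 to 0.200). Per kilobase of exon the level of Xrcc5 was 0.39 ± 0.078 of that of Xrcc6 in WT and 0.70 ± 0.030 in R98S cells (n = 3, SD). The 2 groups of ratios did not overlap (exact two-sided permutation p = 0.1, which is the lowest value possible with 3 clones a group), and this pair was 1 of 8 pairs of partners chosen after the values were seen. The other pairs with non-overlapping ratios were Atm with Atr and Lig3 with Xrcc1. For Atm with Atr that outcome was fixed by the opposite, non-overlapping differences of the 2 genes. Exact permutation p was 0.2 for Fanci with Fancd2, 0.4 for Xrcc4 with Lig4 and 0.4 for Nbn with Rad50. It was 0.8 for Bard1 with Brca1 and 0.9 for Mre11a with Rad50. Since 0.1 was the lowest value possible, no pair could pass a threshold of 0.05, with or without adjustment over the 8.

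The later factors of end joining did not pass the test. Prkdc, the catalytic subunit of the DNA-dependent protein kinase that Ku activates, ranged from 1907 to 2317 normalized counts in WT and from 1960 to 2371 in R98S clones (log2 fold change 0.034 ± 0.12 SE, adjusted p = 0.878 in limma). Xrcc4 and Lig4 encode the complex that seals the ends. Their log2 fold changes were -0.21 (± 0.19 SE, adjusted p = 0.469 in limma) and 0.15 (± 0.21 SE, adjusted p = 0.660 in limma), with overlapping groups in both. In end joining, 2 of 5 members (40%) were thus called, both of them the Ku subunits, compared with 23.9% of all tested genes.

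The 2 apical checkpoint kinases differed in opposite directions. Atm (chromosome 9, 53439149 to 53536740, minus strand), which signals breaks, gave 2024 (clone 28), 2273 (clone 29) and 2637 (clone 36) normalized counts in WT and 3076 (clone 11), 2864 (clone 13) and 3584 (clone 35) in R98S cells. All R98S clones were above all WT clones, and the average rose from 2311 ± 308 to 3175 ± 370.0 (n = 3, SD; log2 fold change 0.46 ± 0.14 SE, adjusted p = 0.0557 in limma). Atr (chromosome 9, 95857597 to 95951781, plus strand), which signals stalled forks, gave 3591 (clone 28), 3527 (clone 29) and 3794 (clone 36) normalized counts in WT and 3097 (clone 11), 2535 (clone 13) and 2793 (clone 35) in R98S cells. All R98S clones were below all WT clones, and the mean fell from 3637 ± 139 to 2808 ± 281 (n = 3, SD; log2 fold change -0.38 ± 0.11 SE, adjusted p = 0.0513 in limma). Per kilobase of exon the ratio of Atm to Atr was between 1.29 and 1.59 in WT clones. In R98S clones it was between 2.27 and 2.93 (exact two-sided permutation p = 0.1, the smallest possible). The opposite, non-overlapping differences of Atm and Atr fixed this outcome, so the ratio is no further test. Exon length took in the exons of all annotated transcripts, 10338 bases for Atm and 23629 for Atr. The ratio therefore does not compare the numbers of Atm and Atr transcripts. Both genes lie on chromosome 9, where the 642 tested genes were at a median log2 fold change of -0.045, and both kept their call with the regional shift subtracted (0.56 and -0.29, limma adjusted p = 0.0388 and 0.0560). Each call was lost without WT clone 28, WT clone 29 or R98S clone 35, that of Atm also without R98S clone 11 or the intensity trend, and that of Atr also without WT clone 36, alone or together with R98S clone 13 (limma adjusted p from 0.101 to 0.198 for Atm and from 0.104 to 0.154 for Atr).

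The effector kinases and the chromatin reader of breaks were short of the threshold. Chek1, the target of ATR, gave 1157 (clone 28), 1102 (clone 29) and 1503 (clone 36) normalized counts in WT and 1956 (clone 11), 1240 (clone 13) and 1959 (clone 35) in R98S cells (log2 fold change 0.44 ± 0.20 SE, adjusted p = 0.186 in limma). R98S clone 13 lay within the WT range, and without it Chek1 passed with 0.66 (limma adjusted p = 0.0340). Chek2, the target of ATM, had a log2 fold change of 0.33 (± 0.21 SE, adjusted p = 0.312 in limma). It was at 0.20 when WT clone 28 was left out and at 0.52 when WT clone 36 was, and passed at 0.65 without WT clone 36 and R98S clone 13 together (limma adjusted p = 0.0320). Trp53bp1, whose product shields ends from resection, was at -0.18 (± 0.14 SE, adjusted p = 0.418 in limma), while its neighbours on chromosome 2 were at 0.20. With that shift subtracted it passed the test at -0.44 (limma adjusted p = 0.0312).

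**Figure D2:**
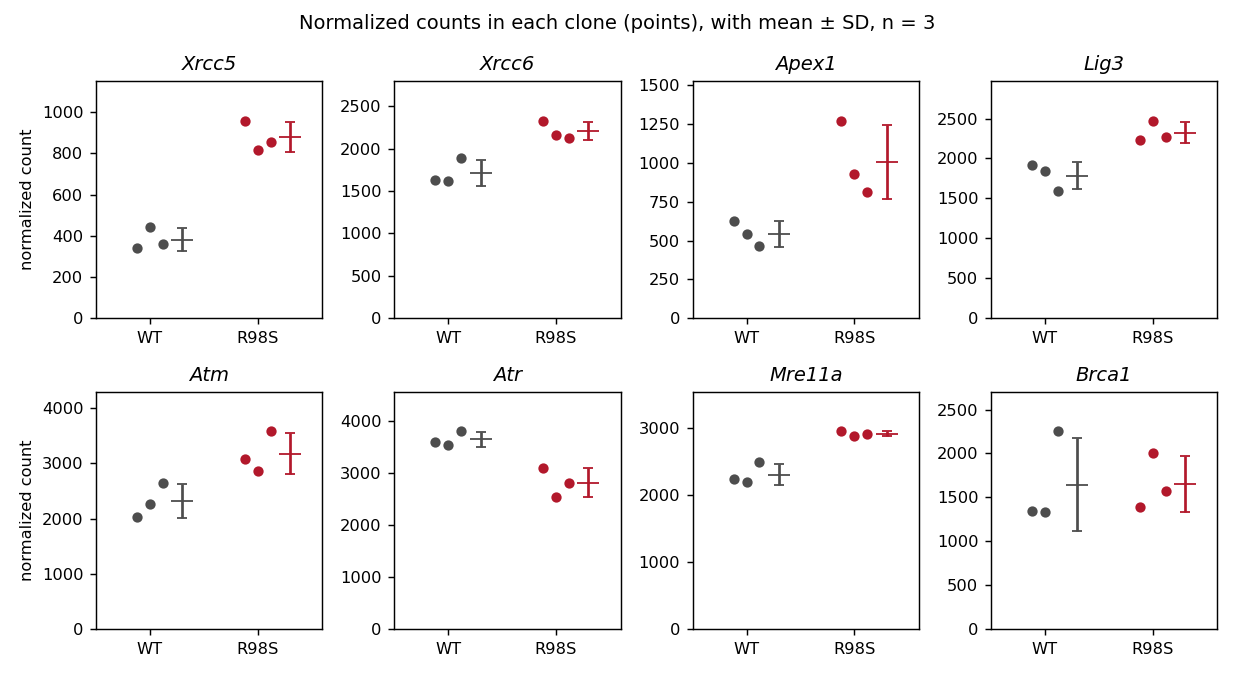
Normalized counts (y axes, from 0) of 8 repair genes in each of 3 WT clones (grey points) and 3 R98S clones (red points), with the mean and SD of each group beside them. For Xrcc5, Xrcc6, Apex1, Lig3, Atm and Mre11a the R98S points lie above the WT points, for Atr below them, and for Brca1 the groups overlap, with WT clone 36 at 2253.

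Among the genes of homologous recombination, 2 of the 3 that encode the end-binding complex of Mre11, Rad50 and Nbs1 were called, both higher. Over all tested genes, 23.9% were called and 10.7% called higher. Mre11a (chromosome 9, 14784654 to 14837123, plus strand), the nuclease of the complex, gave 2227 (clone 28), 2190 (clone 29) and 2482 (clone 36) normalized counts in WT and 2945 (clone 11), 2875 (clone 13) and 2910 (clone 35) in R98S cells. The R98S clones were nearly equal, and the average rose from 2300 ± 159 to 2910 ± 35.0 (n = 3, SD; log2 fold change 0.34 ± 0.098 SE, adjusted p = 0.0514 in limma). Nbn (chromosome 4, 15957925 to 15992589, plus strand), the adaptor Nbs1, rose from 850 ± 128 to 1272 ± 188 (n = 3, SD; log2 fold change 0.58 ± 0.16 SE, adjusted p = 0.0464 in limma). Rad50, the ATPase, gave 1561 (clone 28), 1606 (clone 29) and 2116 (clone 36) normalized counts in WT and 2003 (clone 11), 2452 (clone 13) and 2363 (clone 35) in R98S cells. Its groups overlapped through WT clone 36, and it was short of the threshold (log2 fold change 0.38 ± 0.15 SE, adjusted p = 0.123 in limma) unless that clone was left out (0.52, limma adjusted p = 0.0438). DESeq2, the correction for GC content and length, and the subtraction of the regional shift also placed Rad50 past the threshold (adjusted p from 0.0781 to 0.0995). The calls of Mre11a and Nbn were both lost without WT clone 28, WT clone 29, R98S clone 11 or R98S clone 35, and that of Mre11a also without an expression filter (limma adjusted p from 0.103 to 0.195 for Mre11a and from 0.125 to 0.162 for Nbn).

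A translocase and a helicase that act on recombining strands were also higher. Rad54l (chromosome 4, 116094264 to 116123690, minus strand), which assists strand invasion, gave 786 (clone 28), 815 (clone 29) and 999 (clone 36) normalized counts in WT and 1413 (clone 11), 1251 (clone 13) and 1430 (clone 35) in R98S cells. The groups were well apart (means 867 ± 115 and 1365 ± 98.7, SD, n = 3; log2 fold change 0.66 ± 0.13 SE, adjusted p = 0.0171 in limma). Blm (chromosome 7, 80454733 to 80535119, minus strand), a RecQ helicase that dissolves recombination intermediates, gave 2365 (clone 28), 2722 (clone 29) and 3434 (clone 36) normalized counts in WT and 4039 (clone 11), 4162 (clone 13) and 4164 (clone 35) in R98S cells. Its average rose from 2840 ± 544 to 4122 ± 71.6 (n = 3, SD; log2 fold change 0.55 ± 0.14 SE, adjusted p = 0.0355 in limma). With the regional shift subtracted neither gene passed, with 0.22 for Rad54l (limma adjusted p = 0.208) and 0.28 for Blm (limma adjusted p = 0.214). The call of Blm was also lost without WT clone 28 or WT clone 29 (limma adjusted p of at least 0.107).

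The BRCA genes did not pass the test. Brca1 and its ubiquitin ligase partner Bard1 had log2 fold changes of 0.041 (± 0.23 SE, adjusted p = 0.922 in limma) and 0.0030 (± 0.18 SE, adjusted p = 0.994 in limma). For Brca1 counts were 1339 (clone 28), 1330 (clone 29) and 2253 (clone 36) in WT and 1388 (clone 11), 2006 (clone 13) and 1571 (clone 35) in R98S cells, so that WT clone 36 alone was above every R98S clone. Palb2, which bridges BRCA1 and BRCA2, had non-overlapping groups and narrowly missed the threshold (394 ± 55.8 in WT and 534 ± 66.0 in R98S cells, n = 3, SD; log2 fold change 0.44 ± 0.16 SE, adjusted p = 0.105 in limma). Its neighbours were at 0.35, and with that shift subtracted it was at 0.081 (limma adjusted p = 0.747). It passed in 7 alternative analyses, among them those without WT clone 36 or R98S clone 13 (limma adjusted p = 0.0682 and 0.0685). Brca2, the loader of the recombinase, gave 1395 (clone 28), 1343 (clone 29) and 2034 (clone 36) normalized counts in WT and 1020 (clone 11), 1240 (clone 13) and 1144 (clone 35) in R98S cells. Every R98S clone was below every WT clone, but the difference was short of the threshold (log2 fold change -0.47 ± 0.17 SE, adjusted p = 0.110 in limma) and passed in DESeq2 (adjusted p = 0.0657) and without WT clone 36 and R98S clone 13 together (-0.34, limma adjusted p = 0.0883). Without WT clone 36 alone it was at -0.27 (limma adjusted p = 0.206). Of 9 recombination members, 4 (44.4%) were called and all 4 were higher, compared with 23.9% called and 10.7% called higher over all tested genes.

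In the Fanconi pathway 1 of 6 members (16.7%) was called, compared with 23.9% of all tested genes. Fancg (chromosome 4, 43002343 to 43010506, minus strand), a subunit of the core complex, rose from 551 ± 49.6 to 810 ± 73.2 (n = 3, SD; log2 fold change 0.56 ± 0.13 SE, adjusted p = 0.0292 in limma). Its neighbours were at 0.46, and with that shift subtracted Fancg was at 0.13 (limma adjusted p = 0.459). The call was also lost without WT clone 28 or WT clone 29 (limma adjusted p of at least 0.106). Fancd2 and Fanci, the clamp that the core complex ubiquitinates, had log2 fold changes of -0.14 and 0.028 (limma adjusted p = 0.649 and 0.944). Fanca, another core subunit, and Fancl, the ubiquitin ligase itself, had 0.25 and 0.17 (limma adjusted p = 0.438 and 0.401). Fanca ranged from 0.11 without R98S clone 35 to 0.44 without WT clone 36, and passed at 0.58 without WT clone 36 and R98S clone 13 together (limma adjusted p = 0.0458). Fancl ranged from 0.083 without R98S clone 35 to 0.21 without R98S clone 13. Fancc varied more within a group than any other member, with 238, 719 and 370.1 normalized counts in R98S clones 11, 13 and 35 compared with 248 to 292 in WT clones. Its log2 fold change of 0.55 (± 0.35 SE, adjusted p = 0.322 in limma) rested on R98S clone 13 and was 0.12 without it (limma adjusted p = 0.723).

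Of 6 members of base excision and single-strand break repair, 3 (50%) were called and all were higher. Over all tested genes 23.9% were called and 10.7% called higher. Apex1 encodes the endonuclease that incises the abasic site after a glycosylase has removed the base. Apex1 (ENSMUSG00000035960, chromosome 14, 50924968 to 50927139, plus strand) gave 625 (clone 28), 542 (clone 29) and 462 (clone 36) normalized counts in WT and 1273 (clone 11), 931 (clone 13) and 810 (clone 35) in R98S cells. The lowest R98S clone was above the highest WT clone, and the average rose from 543 ± 81.2 to 1005 ± 240.1 (n = 3, SD), or 1.85-fold, with a log2 fold change of 0.87 (± 0.19 SE, adjusted p = 0.0239 in limma). The call held in all 19 alternative analyses, with a smaller value of 0.60 (limma adjusted p = 0.0393) after subtraction of the regional shift. Of the exon bases of Apex1, 61.7% are shared with Pip4p1 on the opposite strand (Tmem55b in the table), and whether the counting used the strand is not given in the sources used here. Tmem55b had a ratio of 0.837 (log2 fold change -0.23, limma adjusted p = 0.409).

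Ung, the glycosylase that removes uracil, which in B cells also acts on the products of the deaminase AID, was higher as well. It gave 330 (clone 28), 279 (clone 29) and 399 (clone 36) normalized counts in WT and 479 (clone 11), 516 (clone 13) and 520 (clone 35) in R98S cells (chromosome 5, 114130386 to 114139323, plus strand; log2 fold change 0.60 ± 0.16 SE, adjusted p = 0.0449 in limma). The groups did not overlap, although the neighbours of Ung were at -0.17. The call was lost without WT clone 28, WT clone 29, R98S clone 11 or R98S clone 35 (limma adjusted p from 0.101 to 0.148). Ogg1, the glycosylase for oxidised guanine, had a log2 fold change of 0.083 (± 0.16 SE, adjusted p = 0.761 in limma).

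In single-strand break repair the ligase was called and its scaffold was not. Lig3 (chromosome 11, 82781108 to 82804274, plus strand) gave 1917 (clone 28), 1838 (clone 29) and 1599 (clone 36) normalized counts in WT and 2226 (clone 11), 2475 (clone 13) and 2274 (clone 35) in R98S cells. It rose from 1785 ± 165 to 2325 ± 132 (n = 3, SD; log2 fold change 0.38 ± 0.11 SE, adjusted p = 0.0533 in limma). At the same threshold the call was lost in 8 alternative analyses, with the limma adjusted p from 0.10 to 0.126. Among them were those without any 1 clone except R98S clone 13, and that with the regional shift subtracted. Xrcc1, its scaffold partner, was nearly level at 961 ± 19.7 in WT and 947 ± 68.4 in R98S cells (n = 3, SD; log2 fold change -0.024 ± 0.11 SE, adjusted p = 0.905 in limma). Per kilobase of exon the ratio of Lig3 to Xrcc1 was 1.49 ± 0.16 in WT and 1.97 ± 0.034 in R98S cells (n = 3, SD; exact two-sided permutation p = 0.1, the smallest possible). Parp1, the break sensor, had a log2 fold change of 0.087 (± 0.13 SE, adjusted p = 0.676 in limma). With Rffl, on the opposite strand, Lig3 shares 25.1% of its exon bases, and Rffl had a log2 fold change of 0.39 (adjusted p = 0.310 in limma).

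In nucleotide excision 1 of 7 members (14.3%) was called and in mismatch repair 0 of 2, compared with 23.9% of all tested genes. Pathways were not tested against each other. The called gene was Xpa, whose product verifies the lesion (chromosome 4, 46155347 to 46196311, minus strand). Xpa had 343 to 364 normalized counts in WT clones and 445, 562 and 446 in R98S clones 11, 13 and 35 (log2 fold change 0.44 ± 0.15 SE, adjusted p = 0.0839 in limma). This call was the least firm of the 13, as it was lost when any 1 clone was left out, when WT clone 36 and R98S clone 13 were left out together, without an expression filter and with the regional shift subtracted (limma adjusted p from 0.112 to 0.694). Ddb1, the adaptor of the CUL4 ubiquitin ligase that serves in damage recognition, was by far the most abundant member per length, at 4302 normalized counts per kilobase of exon in WT cells, where the median of the members was 155. Its counts were 27737 (clone 28), 29481 (clone 29) and 25503 (clone 36) in WT and 22068 (clone 11), 22491 (clone 13) and 23556 (clone 35) in R98S cells. Although the groups did not overlap, Ddb1 was short of the threshold (log2 fold change -0.28 ± 0.11 SE, adjusted p = 0.119 in limma) and passed in DESeq2 (adjusted p = 0.0458) and without WT clone 36, alone or together with R98S clone 13 (limma adjusted p = 0.0962 and 0.0674). After subtraction of the regional shift it was at -0.11 (limma adjusted p = 0.522). Ercc1, a subunit of the incision nuclease, also had non-overlapping groups (321 to 365 in WT and 264 to 293 in R98S clones; log2 fold change -0.29, limma adjusted p = 0.210).

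The other members of these pathways had overlapping groups or small differences. The recognition factors Xpc and Ddb2 had log2 fold changes of 0.16 and 0.23 (limma adjusted p = 0.448 and 0.527). The helicases of TFIIH, Ercc2 and Ercc3, had -0.032 and 0.10 (limma adjusted p = 0.911 and 0.584). In mismatch repair, Msh6, which recognises the mismatch, gave 3187 (clone 28), 2773 (clone 29) and 4774 (clone 36) normalized counts in WT and 5098 (clone 11), 3464 (clone 13) and 4395 (clone 35) in R98S cells. Its log2 fold change of 0.29 (± 0.22 SE, adjusted p = 0.394 in limma) became 0.52 without WT clone 36 (limma adjusted p = 0.0947). Pms2, which nicks the strand to be replaced, was at 0.0043 (± 0.13 SE, adjusted p = 0.987 in limma).

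**Figure D3:**
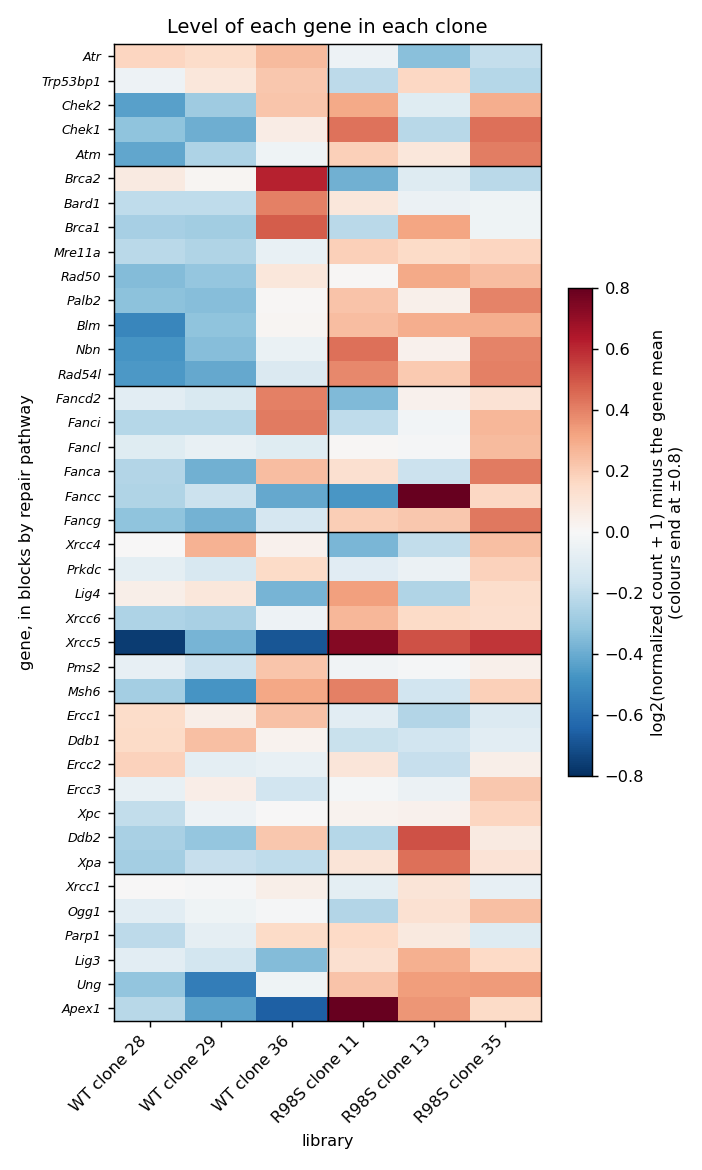
Level of each of the 40 repair genes (rows, in blocks by pathway) in each of the 6 libraries (columns), as log2(normalized count + 1) minus the mean of that gene over the libraries, with colours that end at ±0.8. Blue prevails in WT clones 28 and 29 and red in the R98S clones, while WT clone 36 is the highest of the WT clones in 29 of the 40 rows.

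WT clone 36 stood apart from the other WT clones for these genes. It had the highest value of the 3 WT clones in 29 of 40 members (72.5%), compared with 36.4% of all tested genes. The median deviation of the members from their mean over the libraries was -0.22 in WT clone 28, -0.19 in WT clone 29 and 0.021 in WT clone 36 on the log2 scale. In R98S clones 11, 13 and 35 it was 0.093, 0.037 and 0.17. For all tested genes the same median lay between -0.0081 and 0.013 in every library. A list of 20 genes of S phase was likewise lowest in WT clones 28 and 29, with medians of -0.20, -0.23 and 0.13 in WT clones 28, 29 and 36, compared with 0.11, 0.061 and 0.12 in R98S clones 11, 13 and 35. For 18 genes of G2 and M phase, the median was 0.37 in WT clone 36 and between -0.17 and 0.057 in all other clones. Of the S phase genes 4 (20%) were called, all higher, compared with 23.9% called and 10.7% called higher over all tested genes. The 3 largest were Ccne2 (log2 fold change 0.76), Ung (0.60), which is itself a repair gene, and Mcm6 (0.49). Of the G2 and M phase genes, Ccna2 (0.62) and Plk1 (0.44) were called higher and Ccnb2 (-0.68) lower (16.7% called, compared with 23.9% of all tested genes). Of these 18 genes, 13 had a negative log2 fold change and 5 a positive one, with a median of -0.14. The part of cell cycle genes in the differences between the groups was not tested. Without WT clone 36 and R98S clone 13 together, 18 members were called, 16 higher and 2 lower, while the share over all tested genes went from 23.9% to 31.3%.

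The positions of the genes were compared with their values. All 4 members on chromosome 4 (Rad54l, Nbn, Fancg and Xpa) were called higher, and the 740 tested genes of that chromosome were at a median log2 fold change of 0.15, with 23.1% called higher. Around these members the shift was larger: the 30 nearest tested genes had medians of 0.47 for Rad54l, 0.46 for Fancg, 0.33 for Xpa and 0.28 for Nbn. With the shift subtracted in each library, Nbn alone of the 4 remained called (0.33, limma adjusted p = 0.0900). For Xrcc6, Mre11a, Lig3, Atm and Ung, in contrast, the neighbours were between -0.17 and 0.051. Among these 5, Lig3 still lost its call with the shift subtracted (0.33, limma adjusted p = 0.107). After the subtraction 10 of the 40 members were called, a share equal to the 25.0% of all tested genes. Of the 10, 8 were higher and 2 lower, where 11.7% of all tested genes were called higher. The 10 were Atm, Atr, Mre11a, Nbn, Xrcc5, Xrcc6, Ung and Apex1 of the 13 above, together with Rad50 and Trp53bp1.

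**Figure D4:**
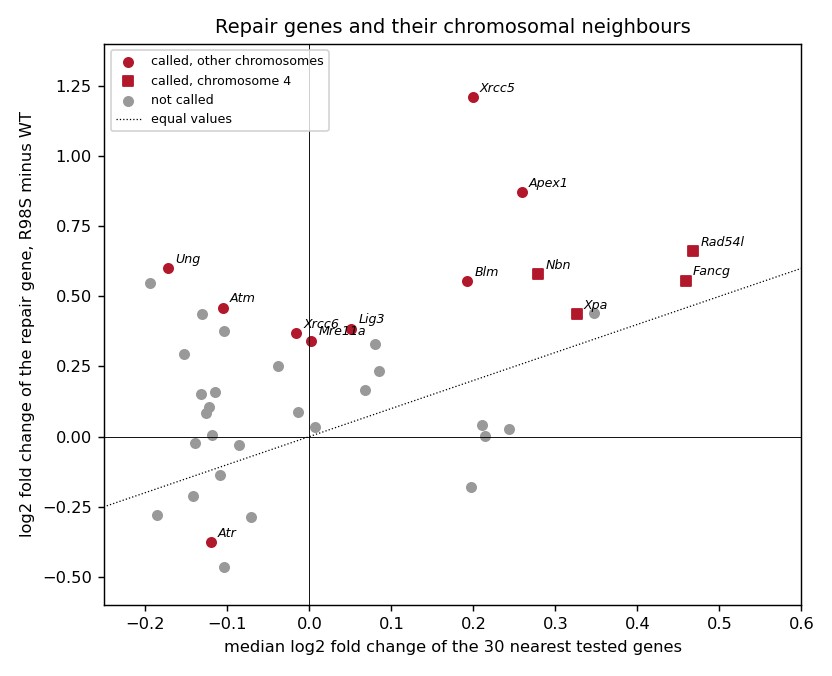
Log2 fold change of each repair gene (y axis) and the median log2 fold change of its 30 nearest tested genes on the chromosome (x axis), with red for genes called at an adjusted p under 0.1 and squares for those on chromosome 4. Xrcc5 and Apex1 lie far above the dotted line of equal values, whereas Rad54l, Fancg and Xpa have neighbours at 0.47, 0.46 and 0.33.

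Neighbouring genes moved unequally between the R98S clones as well. Chromosome 11, with Brca1, Rad50, Lig3 and Fancl, had a median deviation of 0.24 in R98S clone 13 but -0.10 in clone 11 and -0.015 in clone 35, over 980 tested genes. On chromosome 2, with Trp53bp1 and Ddb2, the deviations were 0.23 in R98S clone 13, -0.090 in clone 11 and -0.014 in clone 35. Chromosomes 1 and 14, with Xrcc5 and Apex1, were at 0.23 and 0.22 in R98S clone 11, at 0.15 and 0.15 in clone 13, and at -0.10 and -0.11 in clone 35. For Apex1 the order of the R98S clones was the same as that of its chromosome, and for Xrcc5 clone 35 was above clone 13. The part of these chromosome-wide shifts in the members' values was tested only by the subtraction above.

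Promoter sequence was examined for features that the members share. Of the 40 members, 33 had an entry among the RefSeq promoters (GRCm38.p6), and Nbn, Ercc3, Prkdc, Fancd2, Rad50, Xpc and Ddb2 did not. The 250 bases before each start site were searched on both strands. The E2F motif (TTTCGCGC, TTTGGCGC or TTTCCCGC) was found in 5 members (Bard1, Brca2, Chek2, Fancg and Xrcc6), which is 14.3% of the 35 promoters of the members compared with 1.53% of all 32851 promoters. A CCAAT box was found in 16 members, or 48.6% of their promoters compared with 33.8% of all. The motif TTTGAA, known as CHR, was found in 1 member (2.86% compared with 16.0%), CCGGAAG, an ETS motif, in 5 (17.1% compared with 6.91%), and the NRF1 palindrome in 1 (2.86% compared with 0.782%). None of these motifs contains another. Of the 5 members with the E2F motif, 2 (Fancg and Xrcc6) were called, compared with 32.5% of the 40 members and 23.9% of all tested genes.

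The promoters of the called members with the 2 highest (Xrcc5 and Apex1) and the 2 lowest log2 fold changes (Atr and Mre11a) are shown as examples, since they mark both ends of the called range. Each line gives the 250 bases before the start site, 5′ to 3′ on the strand of the gene, with CCAAT boxes in capitals (ATTGG where the box is on the other strand). No other motif of those searched was present in these 4 windows, and that of Atr held none.
Xrcc5, chr1:72307171-72307420, plus strand: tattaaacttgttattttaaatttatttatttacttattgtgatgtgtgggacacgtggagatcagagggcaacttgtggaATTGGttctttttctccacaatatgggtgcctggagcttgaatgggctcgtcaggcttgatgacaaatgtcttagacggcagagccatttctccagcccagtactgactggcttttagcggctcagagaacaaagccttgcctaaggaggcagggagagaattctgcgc
Apex1, chr14:50924699-50924948, plus strand: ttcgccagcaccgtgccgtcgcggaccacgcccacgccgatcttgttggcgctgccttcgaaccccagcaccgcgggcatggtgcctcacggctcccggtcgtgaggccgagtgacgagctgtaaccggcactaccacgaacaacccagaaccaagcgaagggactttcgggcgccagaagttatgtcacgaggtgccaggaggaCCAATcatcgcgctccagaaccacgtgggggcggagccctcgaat
Atr, chr9:95857347-95857596, plus strand: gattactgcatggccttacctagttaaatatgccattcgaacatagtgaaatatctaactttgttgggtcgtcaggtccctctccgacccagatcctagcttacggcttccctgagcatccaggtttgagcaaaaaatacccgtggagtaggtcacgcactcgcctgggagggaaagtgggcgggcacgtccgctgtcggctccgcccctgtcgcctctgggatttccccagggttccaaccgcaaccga
Mre11a, chr9:14784404-14784653, plus strand: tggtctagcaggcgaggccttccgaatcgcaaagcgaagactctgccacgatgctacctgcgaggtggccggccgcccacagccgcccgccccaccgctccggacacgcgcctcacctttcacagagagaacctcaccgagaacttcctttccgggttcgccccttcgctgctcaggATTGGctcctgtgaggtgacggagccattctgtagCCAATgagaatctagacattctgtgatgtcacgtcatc

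The other genes of the repair pathways were compared with the members. Of 128 further genes written down by symbol, 124 matched the table and 123 were tested, and 18 of them (14.6%) were called, compared with 23.9% of all tested genes. Of these, 12 were higher (9.76%, compared with 10.7%) and 6 lower (4.88%, compared with 13.1%), with a median log2 fold change of 0.11. The share of these genes called higher was thus near that of all tested genes. The genes of the list of 40 and the further genes were both written down with earlier results known. Per pathway, 4 of 19 checkpoint genes, 3 of 33 recombination genes, 0 of 9 Fanconi genes, 1 of 7 end joining genes, 0 of 5 mismatch repair genes, 4 of 19 nucleotide excision genes, 3 of 16 base excision genes and 3 of 15 genes of damage reversal and translesion synthesis were called in limma.

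The largest rise among these was that of Nthl1, a glycosylase for oxidised pyrimidines, from 117 ± 21.2 to 235 ± 35.0 normalized counts (n = 3, SD; log2 fold change 1.01, limma adjusted p = 0.0193). Wee1, the kinase that holds back mitosis, rose with a log2 fold change of 0.79 (adjusted p = 0.0254 in limma), Mgmt, which reverses alkylation of guanine, with 0.73 (limma adjusted p = 0.0315), Rad23b, the partner of XPC, with 0.64 (limma adjusted p = 0.00873), and the nuclease Exo1 with 0.60 (limma adjusted p = 0.0363). The neighbours of Rad23b on chromosome 4 were at 0.33, and with the shift subtracted Rad23b was at 0.35 (limma adjusted p = 0.0361).

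The glycosylase Neil3 fell from 1275 ± 457 to 568 ± 67.9 (n = 3, SD; log2 fold change -1.11, limma adjusted p = 0.0197). Rad18 and Mad2l2, which serve translesion synthesis, fell with log2 fold changes of -0.62 and -0.64 (limma adjusted p = 0.0136 and 0.0326), and Cul4a, the cullin that DDB1 binds, with -0.56 (limma adjusted p = 0.0136). A list of 15 p53 targets, of which 13 were tested, had 4 called higher and 3 lower, led by Eda2r (log2 fold change -3.37), Zmat3 (1.69) and Ccng1 (1.35). These were 30.8% and 23.1% of the tested p53 targets, compared with 10.7% and 13.1% of all tested genes.

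The reads of several members may be shared with other genes. Exons of 22 of the 40 members overlap exons of a gene on the opposite strand, 11 of them over more than 10% of their exon bases. Rad54l shares 15.4% of its exon bases with Lrrc41, which was itself higher in R98S cells (log2 fold change 0.63, limma adjusted p = 0.0286). Xpa shares 4.07% with Ncbp1, also higher (0.57, limma adjusted p = 0.0150), and Xrcc6 7.69% with Desi1 (0.17, limma adjusted p = 0.369). No exon overlap with an annotated gene was found for Xrcc5, Atm, Nbn, Blm, Ung or Fancg.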

How the data were processed

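Polyadenylated RNA of the 6 clones was sequenced from strand-specific libraries. The submitters' processing notes name Bowtie2, TopHat, SAMtools, HTSeq, DESeq2 and the mm10 (GRCm38) genome. For the study's other mRNA libraries the authors describe counting of reads aligned to exons. Which of the other steps applied to the libraries used here is not given in the sources used here. The strand setting of the counting is not given in the sources used here. As deposited, the table holds a normalized signal, which the authors obtained by dividing each gene's read count by the size factor DESeq2 gave the library. All values above 0 were whole multiples of 1 step per library (100%, tolerance 0.001 reads), so that reads were recovered, between 21786776 and 24204991 per library. In WT clone 36 the step (1.001) lay near 1, where rounded values would look alike.

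Clones were grouped by their labels. The main test was limma (3.58.1, in R 4.3.3) with its intensity trend, applied to log2(normalized count + 1) over the 11550 genes with a mean of at least 10, two-sided, with Benjamini-Hochberg adjustment over all of them and a threshold of 0.1, the false discovery rate of the study. Fold changes are on this log2 scale, which understates those of weak genes. The p-values cover the spread between 3 clones a group. Alternatives were other pseudocounts (0.5 and 5), filters (none, or a mean of at least 50) and scalings (total, upper quartile), no trend, a threshold of 0.05, edgeR (version 4.0.16, quasi-likelihood, TMM) and DESeq2 (version 1.42.0) on the recovered reads, subtraction, per library, of the median deviation of a gene's 30 nearest neighbours, a local regression on GC content and transcript length (span 0.3) and leaving out each clone. Leaving out WT clone 36 and R98S clone 13 together was chosen after seeing the data. Coordinates, exon lengths and overlaps came from GENCODE M21 (GRCm38). The exon length of a gene was the union of the exons of all its annotated transcripts. Levels per kilobase of exon thus do not compare transcript numbers between genes. The scripts were tested on simulated data. Members and gene lists were chosen with earlier results of these data known. All members are named, of the other repair genes up to 5 called in each direction with a mean of at least 100, and of the cell cycle and p53 lists up to 3 called genes, except for items that are not reported here.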

Additional observations from a re-analysis of the deposited data

How the results depend on the processing

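No paired analysis was possible because the clone numbers of the groups differ. Of 13 called members, 12 higher and 1 lower, the counts were 7, 7 and 0 at an adjusted p under 0.05. Members lower in R98S cells numbered 3 with DESeq2, 2 with the regional shift removed and 2 without WT clone 36 and R98S clone 13, a fit that called 30 of the other repair genes in place of 18. Across the fits that each left out 1 clone, between 3 and 14 members were called, 3 to 13 higher and 0 to 1 lower, with 7 to 23 of the other repair genes and a median log2 fold change of the members from 0.14 to 0.30. The lowest counts came without WT clone 28 or WT clone 29. In those fits 11.4% to 27.8% of all tested genes were called, compared with 23.9% with all clones. The other counts stayed within 1.5 times. The median of 0.20 moved most without WT clone 36, to 0.30. The cause was not tested.

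Of 760 comparisons of single members, 648 kept direction and call, 57 lost a call, 24 gained one and 31 reversed, none of them in a called member. With the regional shift removed, Brca1 was at -0.12, Bard1 at -0.23, Fanci at -0.27, Ercc2 at 0.052 and Xrcc1 at 0.089. Bard1 was at -0.017 with DESeq2 and -0.014 with edgeR. With the same upper quartile Ercc2 was at 0.0088 and Xrcc1 at 0.016, and Ercc2 was at 0.016 without WT clone 36 and R98S clone 13. Over the fits without 1 clone, Brca1 ranged from -0.11 to 0.29, Bard1 from -0.098 to 0.20, Fancd2 from -0.23 to 0.033, Fanci from -0.099 to 0.24, Prkdc from -0.051 to 0.12, Pms2 from -0.078 to 0.12, Ercc2 from -0.087 to 0.054, Ogg1 from -0.016 to 0.22 and Xrcc1 from -0.083 to 0.0077.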
